A study of Homo sapiens with 28 samples.

Results

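ZHX2 was mapped on the chromatin of hypoxic T47D cells in 2 ways, by an antibody to the endogenous protein and by an antibody to a Flag tag on an introduced wild-type ZHX2, and the 2 peak lists were set against each other. Peaks on chromosomes 1 to 22 and X were placed in 3 classes: in both lists (an overlap of at least 1 bp), endogenous alone, and Flag alone. The endogenous list held 32343 peaks and the Flag list 31278, together 63621 of the 349107 peaks in the 8 lists of the series. T47D is an established luminal breast cancer cell line, and the study used chromatin immunoprecipitation followed by sequencing (ChIP-seq) of ZHX2, of the DNA-binding protein CTCF and of histone H3 acetylated at lysine 27 (H3K27ac). The groups used here were hypoxia with ZHX2, CTCF or H3K27ac antibody in T47D cells and hypoxia with Flag antibody in T47D cells labelled WT, with the normoxia ZHX2, CTCF and H3K27ac lists and the Flag list of a ZHX2 mutant labelled PA for reference. Each group had 2 samples and 1 peak list. Per the labels' growth protocol, cells were selected with hygromycin or puromycin after lentivirus infection. Which groups carried which vector, the promoter that drives the tagged ZHX2, whether endogenous ZHX2 was depleted in those cells, whether the lines were clones, and the oxygen level and duration of hypoxia are not given in the sources used here. With 1 list per group there were no replicate values, so shares carry 95% Wilson intervals and differences between shares 95% Newcombe intervals. These cover counting error over peaks only, and neighbouring peaks are not independent.

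ZHX2 is a protein with zinc fingers and homeodomains that acts in the nucleus as a regulator of transcription and is a substrate of the von Hippel-Lindau (VHL) ubiquitin ligase, which also marks the hypoxia-inducible factors for destruction in oxygen. CTCF binds a long DNA motif, halts cohesin and so anchors chromatin loops, and it is also found at promoters. H3K27ac marks active promoters and enhancers. An antibody to a tag sees the introduced protein alone, while an antibody to ZHX2 can see both the endogenous and the introduced protein.

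Promoters from the 3 classes are given as examples of sequence. The 250 bases before the annotated start are given from RefSeq (GRCh38.p14), read 5′ to 3′ on the strand of the gene, in lower case. The hypoxia-induced genes come first, with the hypoxia response core ACGTG (either strand) in capitals. PGK1 encodes the glycolytic enzyme phosphoglycerate kinase, CA9 the acid-regulating carbonic anhydrase IX and ENO2 an enolase of glycolysis.
PGK1 (chrX:78103998-78104247, plus strand, in both): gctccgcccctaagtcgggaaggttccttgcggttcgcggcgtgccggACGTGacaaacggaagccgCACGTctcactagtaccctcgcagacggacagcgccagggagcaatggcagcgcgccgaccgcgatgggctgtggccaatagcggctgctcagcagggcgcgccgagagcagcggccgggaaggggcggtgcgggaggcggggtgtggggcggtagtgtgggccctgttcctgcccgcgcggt
CA9 (chr9:35673678-35673927, plus strand, Flag alone): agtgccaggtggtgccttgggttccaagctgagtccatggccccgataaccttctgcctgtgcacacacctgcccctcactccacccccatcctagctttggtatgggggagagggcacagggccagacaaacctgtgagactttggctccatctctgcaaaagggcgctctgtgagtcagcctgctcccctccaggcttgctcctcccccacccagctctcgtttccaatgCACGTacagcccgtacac
ENO2 (chr12:6914330-6914579, plus strand, Flag alone): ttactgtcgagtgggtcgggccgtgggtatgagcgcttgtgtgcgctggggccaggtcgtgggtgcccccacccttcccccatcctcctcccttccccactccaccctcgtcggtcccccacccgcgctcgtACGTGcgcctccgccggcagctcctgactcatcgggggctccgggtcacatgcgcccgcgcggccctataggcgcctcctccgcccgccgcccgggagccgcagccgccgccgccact
The next promoters had Flag peaks alone and carry the CCAAT box (either strand) in capitals. CCNB1 encodes cyclin B1, which drives entry into mitosis, and HSPA5 encodes the endoplasmic reticulum chaperone BiP.
CCNB1 (chr5:69166900-69167149, plus strand, Flag alone): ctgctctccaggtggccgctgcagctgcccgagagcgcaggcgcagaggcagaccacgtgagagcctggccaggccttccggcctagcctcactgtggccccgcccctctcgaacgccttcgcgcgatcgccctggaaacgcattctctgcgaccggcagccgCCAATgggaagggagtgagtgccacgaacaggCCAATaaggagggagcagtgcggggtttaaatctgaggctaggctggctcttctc
HSPA5 (chr9:125241344-125241593, minus strand, Flag alone): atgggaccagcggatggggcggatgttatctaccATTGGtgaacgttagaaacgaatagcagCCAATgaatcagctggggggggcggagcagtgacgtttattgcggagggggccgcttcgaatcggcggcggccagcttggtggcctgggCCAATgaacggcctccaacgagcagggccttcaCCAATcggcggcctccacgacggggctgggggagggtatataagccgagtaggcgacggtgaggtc
The last promoters had endogenous peaks alone, and the GC box GGGCGG (either strand) is in capitals. EGFR encodes the receptor of epidermal growth factor, and ZNF264 a zinc finger protein.
EGFR (chr7:55018767-55019016, plus strand, endogenous alone): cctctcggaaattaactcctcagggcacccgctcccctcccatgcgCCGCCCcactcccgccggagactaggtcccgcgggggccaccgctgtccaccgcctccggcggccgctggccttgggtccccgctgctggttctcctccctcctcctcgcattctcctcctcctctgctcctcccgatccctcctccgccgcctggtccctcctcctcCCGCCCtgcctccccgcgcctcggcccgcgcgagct
ZNF264 (chr19:57191250-57191499, plus strand, endogenous alone): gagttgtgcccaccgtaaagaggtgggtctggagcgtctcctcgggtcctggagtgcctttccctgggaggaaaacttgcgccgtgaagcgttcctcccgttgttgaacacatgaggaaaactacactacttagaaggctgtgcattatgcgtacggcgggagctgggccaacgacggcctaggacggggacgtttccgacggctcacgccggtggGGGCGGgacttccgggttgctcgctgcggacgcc
In PGK1 the cores lay 202 to 198 and 183 to 179 bases before the start, in CA9 18 to 14 bases and in ENO2 118 to 114 bases before it. CCNB1 had 2 CCAAT boxes and HSPA5 had 4. The marked motifs are not particular to a class. The GC box also stands in lower case in PGK1, ENO2, CCNB1 and HSPA5, the CCAAT box in PGK1 and CA9, and the hypoxia response core in CCNB1.

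The lists shared about as many peaks as they held apart. Of the endogenous peaks, 17525 met a Flag peak (54.2%, interval 53.6 to 54.7%) and 14818 were endogenous alone. Of the Flag peaks, 14048 met an endogenous peak (44.9%, 44.4 to 45.5%) and 17230 were Flag alone. Numbers differ between the directions because 1 Flag interval can hold several endogenous peaks: 79.0% of the shared Flag intervals held 1, 16.7% held 2 and 4.34% held 3 or more. The widest Flag interval, 20511 bp over SLC7A5, a transporter of large neutral amino acids, held 13 endogenous peaks.

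Sharing rose with the strength of the endogenous peak and with the width of the Flag interval. The authors' score of a peak is 10 times its −log10 q. In the lowest decile of endogenous peaks by score 32.3% were shared and in the highest decile 86.7%. Of the top percent by the authors' fold enrichment, 294 of 324 were shared (90.7%). The Flag list gives positions alone, so width was the one measure of its peaks, and the share rose from 9.30% in the narrowest decile to 92.9% in the widest. Among endogenous peaks the median width and fold were 453 bp and 3.59 where shared, and 280 bp and 3.12 where alone. Shared Flag intervals had a median width of 1542 bp and Flag alone intervals 499 bp.

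**Figure D1:**
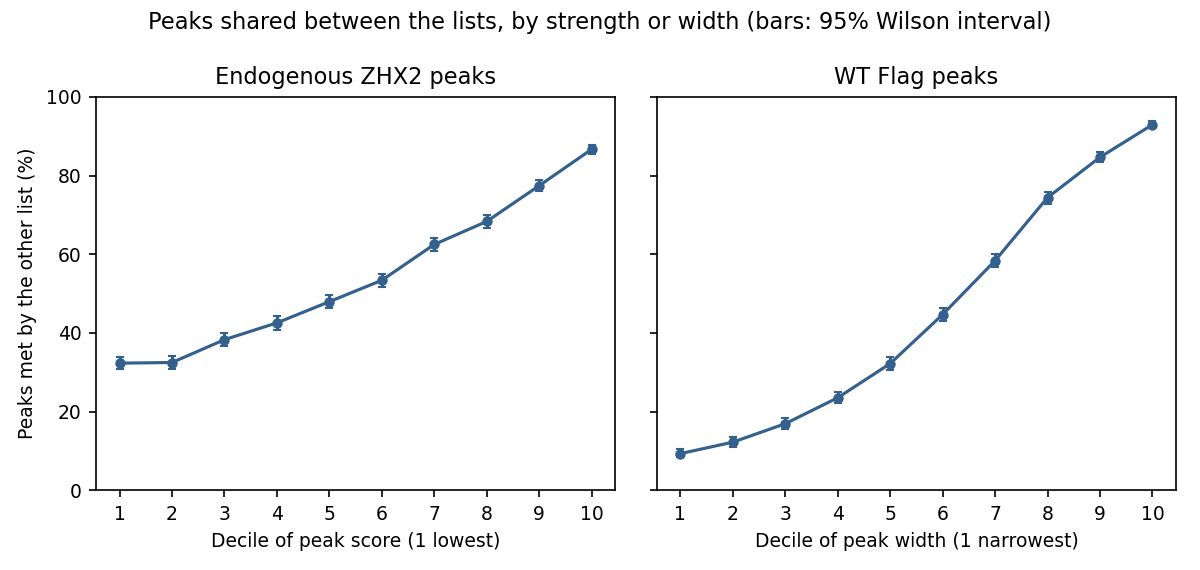
Share of peaks met by the other list (y axis, %) for endogenous peaks in deciles of the authors' score (left) and Flag peaks in deciles of width (right), points with 95% Wilson intervals. The share rises from 32.3% to 86.7% on the left and from 9.30% to 92.9% on the right.

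Width in the Flag list was not a property of the WT sample alone. All 15163 WT Flag intervals that met a PA Flag interval had exactly its coordinates (48.5% of the list), with a median width of 1575 bp against 436 bp for the others. Of the shared Flag intervals 10537 of 14048 were identical in the PA list, and of the Flag alone intervals 4626 of 17230 (26.8%). The sources used here do not say how the Flag lists came to share coordinates, and the part this plays in the overlap was not tested. Among the WT intervals with other coordinates 21.8% met an endogenous peak, and 11.2% of endogenous peaks met one of them. Where an endogenous summit had to lie within 250 bp of the Flag midpoint, 23.8% of endogenous and 24.5% of Flag peaks were shared. Near the rule's threshold, 196 shared endogenous peaks overlapped a Flag interval by 1 to 50 bp and 13146 lay wholly inside one. Of the endogenous alone peaks 683 (4.61%) had a Flag peak within 250 bp of their edge, and 66.0% lay over 10 kb from any. Of the Flag alone peaks 700 (4.06%) had an endogenous peak within 250 bp, and 51.7% lay over 10 kb from any.

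Shared sites were mostly acetylated and often held CTCF, and each single-list class was divided between acetylated sites and sites with neither mark. Of the endogenous peaks in both lists 94.6% overlapped H3K27ac (94.2 to 94.9%) and 62.6% overlapped CTCF (61.8 to 63.3%). Of those alone 47.3% overlapped H3K27ac (46.5 to 48.1%) and 25.6% overlapped CTCF (24.9 to 26.3%). The difference was 47.2 percentage points at H3K27ac (46.4 to 48.1) and 36.9 at CTCF (35.9 to 37.9). Flag alone peaks overlapped H3K27ac in 54.2% (53.4 to 54.9%) and CTCF in 20.0% (19.4 to 20.6%), against 94.6% and 70.4% of shared Flag peaks. Shared Flag intervals are wider. With each Flag interval reduced to 200 bp around its midpoint, CTCF lay at 15.4% of Flag alone and 52.1% of shared intervals. H3K27ac then lay at 52.0% and 92.8%.

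By combined state, 60.6% of shared endogenous peaks had CTCF with H3K27ac, 34.0% H3K27ac alone, 1.99% CTCF alone and 3.45% neither. The endogenous alone class had 16.7%, 30.7%, 8.93% and 43.7% in the same order. The Flag alone class had 14.7%, 39.5%, 5.30% and 40.5%. CTCF without acetylation was thus rarest at shared sites and most frequent at endogenous alone sites (interval 8.48 to 9.40%, against 4.98 to 5.65% for Flag alone).

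**Figure D2:**
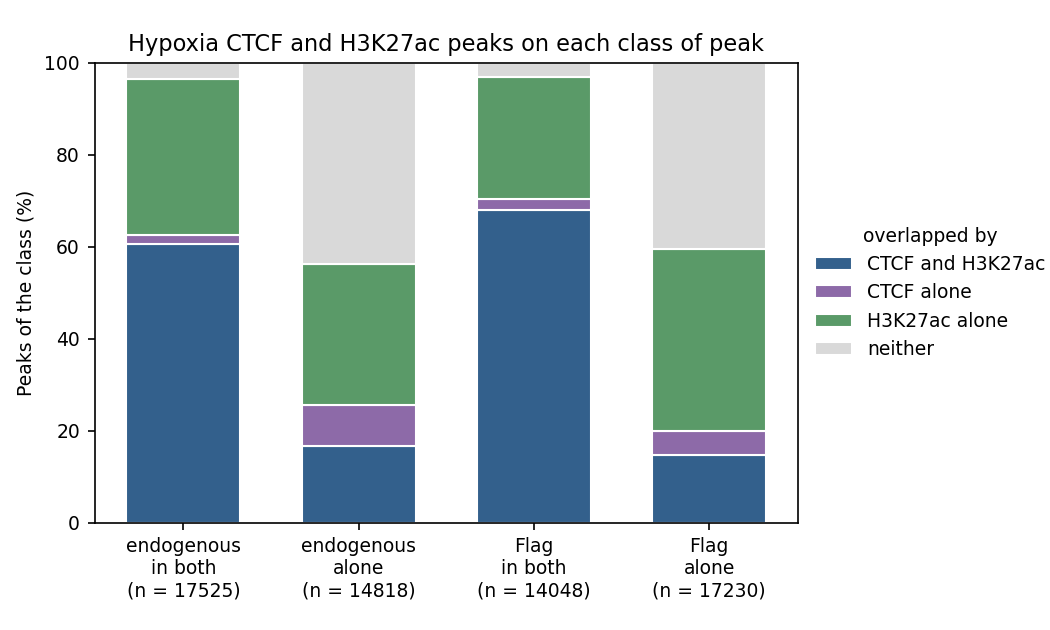
Share of peaks (y axis, %) in each class that overlap a hypoxia CTCF peak, a hypoxia H3K27ac peak, both or neither. Peaks with neither make up 3.45% and 3.07% of the shared classes, 43.7% of endogenous alone and 40.5% of Flag alone peaks.

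Peak strength, width and position moved with these shares, and the differences were present within each of them. Within quintiles of the authors' score the difference between shared and endogenous alone peaks ran from 26.9 to 33.7 points at CTCF and from 31.8 to 57.5 points at H3K27ac. For Flag peaks, within quintiles of width, it ran from 24.4 to 38.1 points at CTCF and from 17.8 to 36.6 points at H3K27ac. With every endogenous peak reduced to 200 bp around its summit the differences were 32.8 and 47.3 points, and with sharing taken as a summit within 250 bp of a Flag midpoint they were 19.1 and 26.9 points. Promoters, here 1 kb around an annotated start for 15812 of 19821 protein-coding genes and around either annotated end for the others, held 61.6% of shared and 16.7% of endogenous alone peaks. Away from promoters shared peaks overlapped CTCF in 44.8% and H3K27ac in 90.3%, and endogenous alone peaks in 20.6% and 44.5%.

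The CTCF peaks met by the classes differed in strength. CTCF peaks at shared endogenous sites had a median fold of 9.61 (quartiles 4.84 and 57.7), below the 19.0 of all 77334 hypoxia CTCF peaks. Those at endogenous alone sites had a median fold of 32.0 (6.74 and 143), and those at Flag alone sites 28.4. Promoters and acetylation moved with this: the medians were 8.85 and 11.96 at promoters and 13.6 and 59.2 away from them, for shared and endogenous alone sites in turn, beside 22.1 for all CTCF peaks away from promoters. On H3K27ac they were 9.40 and 20.7. Where an endogenous peak overlapped CTCF, its summit lay a median of 99 bp from a CTCF summit in the endogenous alone class and 160 bp in the shared class, and 50.3% and 36.3% lay within 100 bp. The acetylated regions met by shared sites had a median fold of 13.3, those met by endogenous alone sites 7.57 and those met by Flag alone sites 8.36, against 4.39 for all H3K27ac regions.

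Normoxia lists were set beside the classes. The normoxia ZHX2 list comes from the antibody whose hypoxia list defines the classes, so a low share among Flag alone peaks follows in part from the rule. Normoxia peaks of endogenous ZHX2 overlapped 34.9% of shared endogenous peaks, 18.6% of endogenous alone peaks (18.0 to 19.2%), 41.0% of shared Flag peaks and 1.92% of Flag alone peaks (1.73 to 2.14%). With all peaks reduced to 200 bp the shares were 31.9%, 17.5%, 23.7% and 1.10% in the same order. In the 3 middle quintiles of score the normoxia share of shared and endogenous alone peaks differed by 2.77, −1.03 and 1.40 points, and in the highest quintile by 9.33 points. H3K27ac of the hypoxia list that was absent from the normoxia list underlay 1.76% of shared endogenous, 3.69% of endogenous alone and 5.50% of Flag alone peaks. The reverse, H3K27ac in the normoxia list alone, underlay 0.496%, 1.88% and 1.79%. CTCF in the hypoxia list alone lay at 4.64%, 1.24% and 1.57%, and CTCF in the normoxia list alone at 6.08%, 4.18% and 3.01%.

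At gene level, 9765 of 19821 protein-coding genes had a shared peak at a promoter (49.3%). Another 1474 had endogenous peaks alone (7.44%), 1691 had Flag peaks alone (8.53%), 217 had peaks of both lists that did not touch (1.09%) and 6674 had none. With the summit rule 5087 genes had a shared peak. H3K27ac lay at 65.0% of all promoters, and at the promoters of 98.1% of genes with shared peaks, 85.3% of those with Flag peaks alone and 60.8% of those with endogenous peaks alone. CTCF lay at 83.6%, 59.1% and 64.5%, against 57.8% of all promoters and 17.4% of promoters with no peak. The Flag alone share was thus near that of all promoters. Promoters with neither mark made up 0.707%, 9.11% and 20.7%, against 28.2% of all. Normoxia ZHX2 lay at 43.4% of endogenous alone and 7.16% of Flag alone promoters, against 29.3% of all. Among the 15812 genes with a known start 6.89% had endogenous peaks alone and 9.01% Flag peaks alone. Of the genes named below, ATN1, BNIP3L, CCND1, CDK2, ELOC, FBXL16, GOLGA8A, LOXL2, MCM5, MYC, NDRG1, RRAS, SCX, SLC2A3, TFF1, TFF3, VEGFA, VHL, ZHX1, ZHX2, HOXA5, HOXB2, HOXB4, HOXB5, HOXB6, HOXB9, HOXB13, HOXC8, HOXC9 and HOXC12 had no start in the table, so their peaks lie near either annotated end of the gene and need not be at the promoter.

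The strongest shared promoter peaks, by the authors' fold, lay at FUZ, a planar cell polarity protein of cilia (chromosome 19, 49812919 to 49814055, fold 80.9), MORF4L1, a chromodomain protein of histone acetyltransferase complexes (chromosome 15, 78872630 to 78874650, 69.1), and the promoters of B9D2 and TMEM91 (60.8). VPS37B (53.7), ENOSF1 (48.7), MINDY4 (47.7), DENND6B (46.5), RBM23 (43.9), YY1 (43.9) and PGK1 (42.5) followed. YY1 is a zinc finger protein that joins promoters and enhancers. All 10 peaks overlapped H3K27ac, and 8 overlapped CTCF, those of B9D2 with TMEM91 and of PGK1 being the exceptions. All 10 were also present in the normoxia ZHX2 list and the PA Flag list, against 34.9% and 80.4% of shared endogenous peaks. In the highest quintile of score the normoxia share of shared peaks was 67.6%.

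The strongest endogenous alone promoter peaks had lower folds, from 19.0 down to 11.8. They lay at CDKN2A, the gene of the cell cycle inhibitors p16 and ARF (chromosome 9, 21994047 to 21994890, fold 19.0), GNAL (17.9), ZNF264 (17.0), SHISA2 (16.0), GOLGA8A (14.5), SNRPN with SNURF, imprinted genes (14.4), TFCP2 (12.6), SCX (12.4), LOC105371206 (12.1) and POU3F3 (11.8). Within the same gene windows CDKN2A also had a shared peak and GNAL a Flag peak that met no endogenous one. The state was mixed: 2 of the 10 had CTCF and H3K27ac, 4 H3K27ac alone, 2 CTCF alone and 2 neither. All 10 were in the normoxia ZHX2 list, against 18.6% of the class and 58.2% of its peaks in the highest quintile of score. GOLGA8A has near-identical copies, so the placing of its reads is uncertain.

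The widest Flag alone promoter intervals lay at BORCS6 (chromosome 17, 8185947 to 8190903, 4957 bp), RRAS with SCAF1 (4853 bp), SPSB2 (4747 bp), OR1F1 (4603 bp), ME1, the cytosolic malic enzyme (4449 bp), MAP2K3 (4391 bp), GPI, the glycolytic glucose-6-phosphate isomerase (4373 bp), FRK (4233 bp), FBXL16 (4172 bp) and ATN1 (4135 bp). FBXL16 also had a shared Flag interval within the same gene windows. CTCF and H3K27ac lay together at 7 of the 10, H3K27ac alone at GPI, and neither at OR1F1 and ME1. None of the 10 was in the normoxia ZHX2 list, against 1.92% of all Flag alone peaks, a low share that follows in part from the rule. A PA Flag interval met 9, against 26.8% of the class. The 10 were picked by width, and intervals identical in the PA list were the wider ones.

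Hypoxia-induced genes were nearly all occupied, mostly by shared peaks. Of 38 genes 32 had shared peaks (84.2%, against 49.3% of all genes), 5 Flag peaks alone (13.2%, against 8.53%), 0 endogenous peaks alone (against 7.44%) and 1, LOXL2, no peak. The single-list counts are small and not far from the shares of all genes. H3K27ac lay at 37 of the 38 promoters (97.4%, against 65.0%). The shared share was not particular to this list. Other acetylated lists had like shares, with 84.6% of oxidative phosphorylation and 84.5% of cytosolic ribosomal protein genes. Cell cycle genes, with H3K27ac at 96.2%, had a lower one (53.8%). PGK1 led the shared genes: its endogenous peak (chromosome X, 78103702 to 78104433, fold 42.5) was higher than 99.9% of the list and lay inside a Flag interval of 1150 bp, with H3K27ac and no CTCF. KDM3A, a histone demethylase (fold 19.4), BNIP3L, a mitophagy receptor (9.18), and EGLN1, the main oxygen-sensing prolyl hydroxylase (8.95), also stood in the upper 2% of the list. VEGFA, the angiogenic growth factor, had an endogenous fold of 3.01 (percentile 35.1) and 3 Flag intervals of up to 904 bp. NDRG1, a stress-induced gene, had a shared peak of fold 5.65. At SLC2A1, the glucose transporter GLUT1, the strongest endogenous peak (fold 3.78) was not itself in the Flag list, but a neighbouring one was.

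The Flag alone hypoxia genes were CA9 (interval of 933 bp, chromosome 9, 35673321 to 35674253), ENO2 (1941 bp, chromosome 12, 6913848 to 6915788), EGLN3, a further prolyl hydroxylase (1298 bp), ALDOC, a glycolytic aldolase (728 bp), and SLC2A3, the glucose transporter GLUT3 (305 bp, near the annotated end with the lower coordinate). None had CTCF, and their best H3K27ac folds ran from 3.50 at CA9 to 9.83 at ALDOC. The median was 8.36 for regions met by Flag alone sites, 13.3 for those met by shared endogenous sites and 4.39 for all regions. SLC2A3 and ALDOC were named after their values were seen. In the promoters shown above, the core in CA9 and ENO2 lay within these Flag intervals, and the cores in PGK1 lay within the endogenous peak and the Flag interval.

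Genes of oxygen sensing and the ZHX family gave 13 shared (76.5%, against 49.3% of all genes), 0 endogenous alone (against 7.44%) and 3 Flag alone of 17 (17.6%, against 8.53%). The latter were EGLN3, HIF3A and the elongin subunit gene ELOC. The ZHX2 promoter itself had a shared peak of fold 28.6 (percentile 99.9) within a Flag interval of 7090 bp. VHL (fold 3.28), HIF1A (4.52), EPAS1, the gene of HIF-2α (4.16), ZHX1 (7.61) and ZHX3 (2.91) had shared peaks as well. Further inside the ZHX2 gene a Flag alone interval of 2739 bp overlapped neither CTCF nor H3K27ac and had the same coordinates in the PA list. Its place relative to the exons was not analysed here.

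The 6 highest folds of the endogenous alone class lay inside HIF1A, the gene of HIF-1α, away from its promoter. All 12 endogenous alone peaks there had folds of 33.2 to 146 and were 365 to 925 bp wide, while the shared promoter peak had a fold of 4.52. None of the 12 overlapped CTCF and 2 overlapped H3K27ac. Each was also in the normoxia ZHX2 list, and 5 met a PA Flag interval, against 18.6% and 1.32% of all endogenous alone peaks. Outside HIF1A the highest fold of the class lay in NEK9, at a peak on the HIF1A pseudogene HIF1AP1 (61.7), which shares sequence with HIF1A. Sequence shared between a gene and a pseudogene can make the placing of reads uncertain. Whether it did so at these peaks was not tested, and exons were not analysed here.

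**Figure D3:**
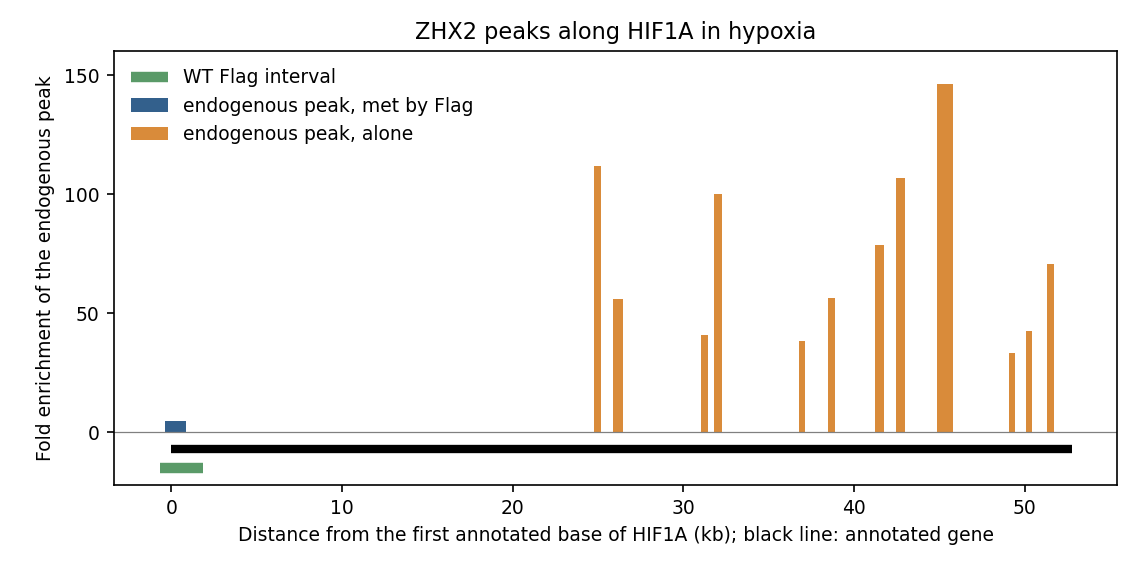
Fold enrichment of endogenous ZHX2 peaks (y axis, linear) by distance from the first annotated base of HIF1A in kb, with bars as wide as the peaks, the gene as a black line and the WT Flag interval in green. The promoter peak met by Flag has a fold of 4.52, and the 12 peaks with no Flag interval range from 33.2 to 146.

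Cell cycle genes had the largest Flag alone share of the 19 lists. Of 26 genes 14 had shared peaks (53.8%), 10 Flag peaks alone (38.5%, against 8.53% of all genes), 0 endogenous peaks alone (against 7.44%), and AURKB separate peaks of both lists. Among the 21 with a known start 9 had Flag peaks alone (42.9%, against 9.01%). The widest Flag alone intervals lay at CDKN1B, the inhibitor p27 (3192 bp), MCM3, a subunit of the replicative helicase (1813 bp), and CCNB1 (1336 bp). For CDK2, a kinase of S phase entry with no start in the table, the interval of 1863 bp lay past the annotated end with the higher coordinate. CCNE1, CDC20, CDC25A, E2F1, TOP2A and BUB1 were the others, with intervals of 207 to 1080 bp. All 10 had H3K27ac, against 85.3% of all genes with Flag peaks alone, with best folds of 7.37 to 22.2. Normoxia ZHX2 lay at 1 of them, E2F1, against 7.16% of all genes with Flag peaks alone. Both counts are near what that class gives. Among the shared genes MCM5 had an endogenous fold of 17.9 and CCND1, cyclin D1, 4.59, while PLK1 (2.20), CDKN1A (2.41) and CCNA2 (2.44) lay in the lowest decile.

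In the further groups named in this paragraph shared genes made up most, at 72.2 to 87.0% against 49.3% of all genes. Their Flag alone shares ran from 4.35 to 20% against 8.53%, and endogenous alone shares from 0 to 5.26% against 7.44%. Lists not described further lay outside these ranges. Invasion and matrix genes had 57.7% shared and 7.69% endogenous alone. Zinc finger genes had 50.9% and 12.8%, and basal or myoepithelial genes 36.4% and 9.09%. The unfolded protein response had 16 shared, 4 Flag alone (HSPA5, EIF2AK3, SDF2L1 and SEL1L) and 0 endogenous alone of 20. Cytosolic ribosomal protein genes had 71, 11 and 0 of 84, oxidative phosphorylation 22, 3 and 0 of 26, and chromatin looping 17, 2 (SMC1A, a cohesin subunit, and HDAC8, the cohesin deacetylase) and 0 of 20, with a shared peak of fold 8.58 at CTCF itself. Corepressors had 20, 1 (CHD4) and 0 of 23, and the NF-kappaB pathway 13, 2 (IKBKG and CXCL8) and 0 of 18. The Flag alone shares of looping genes, the NF-kappaB pathway and oxidative phosphorylation (11.5%) were thus near that of all genes, and that of corepressors (4.35%) was below it. Among coactivators MED12 had an endogenous peak alone (fold 3.41), with 16 of 19 shared. MYC, the growth-promoting transcription factor, had a shared peak of fold 4.36 and a Flag interval of 5625 bp. Histone genes had 54 shared, 6 Flag alone and 3 endogenous alone of 69.

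Luminal identity genes had the largest shared share of the lists, 21 of 24 (87.5%, against 49.3% of all genes), and all 14 of those with a known start were shared. All 24 held H3K27ac (against 65.0% of all promoters), as did all genes of the unfolded protein response and oxidative phosphorylation, so this check of the labelled cell line is a weak one. ESR1, the oestrogen receptor (fold 3.44, Flag interval 3832 bp), GATA3 (5.68, 4528 bp), FOXA1 (4.15, 7422 bp), PGR (6.70, 4259 bp) and XBP1 (4.24, 5380 bp) were shared. The trefoil genes of chromosome 21 parted: TFF1, an oestrogen receptor target, had a Flag alone interval of 4130 bp, and TFF3 an endogenous alone peak of fold 2.77 with a CTCF peak of fold 249.7 in the same window. Immune and stromal markers, genes of cell types that the line should lack, had shared peaks at 2 of 16 genes and H3K27ac at 5, and olfactory receptors a shared peak at 1 of 387.

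HOX genes went the other way. Of 39 genes 12 had endogenous peaks alone (30.8%, against 7.44% of all genes), 10 had shared peaks (25.6%, against 49.3%), 5 had Flag peaks alone (12.8%, against 8.53%) and 12 had none. Of the 20 with a known start 4 had endogenous peaks alone (against 6.89% of all such genes), 4 shared peaks and 2 Flag peaks alone. HOXB2 (fold 11.2), HOXC12 (6.19), HOXB5 (5.94) and HOXC9 (5.93) had the highest endogenous alone folds, and HOXD11, HOXA10, HOXB6, HOXC8, HOXA11, HOXB13, HOXA7 and HOXB4 followed at 5.39 to 2.97. Of the 12, 11 also had normoxia ZHX2 peaks (all but HOXB13), against 43.4% of all genes with endogenous peaks alone. H3K27ac lay at 7 of the 12, near the 60.8% of that class. Among the Flag alone HOX genes HOXA4, HOXA5, HOXB9 and HOXD1 had no H3K27ac, which lay at 85.3% of all genes with Flag peaks alone. Neighbouring HOX genes share peaks and regions and are not independent. Clustered protocadherins, whose promoters are chosen singly with the help of CTCF, had 8 endogenous alone of 53 (15.1%, against 7.44%). There were 6 shared (11.3%, against 49.3%) and 2 Flag alone (3.77%, against 8.53%), and 36 had no peak. Of the 47 protocadherins with a known start 5 had endogenous peaks alone (10.6%, against 6.89% of all such genes) and 5 shared peaks.

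**Figure D4:**
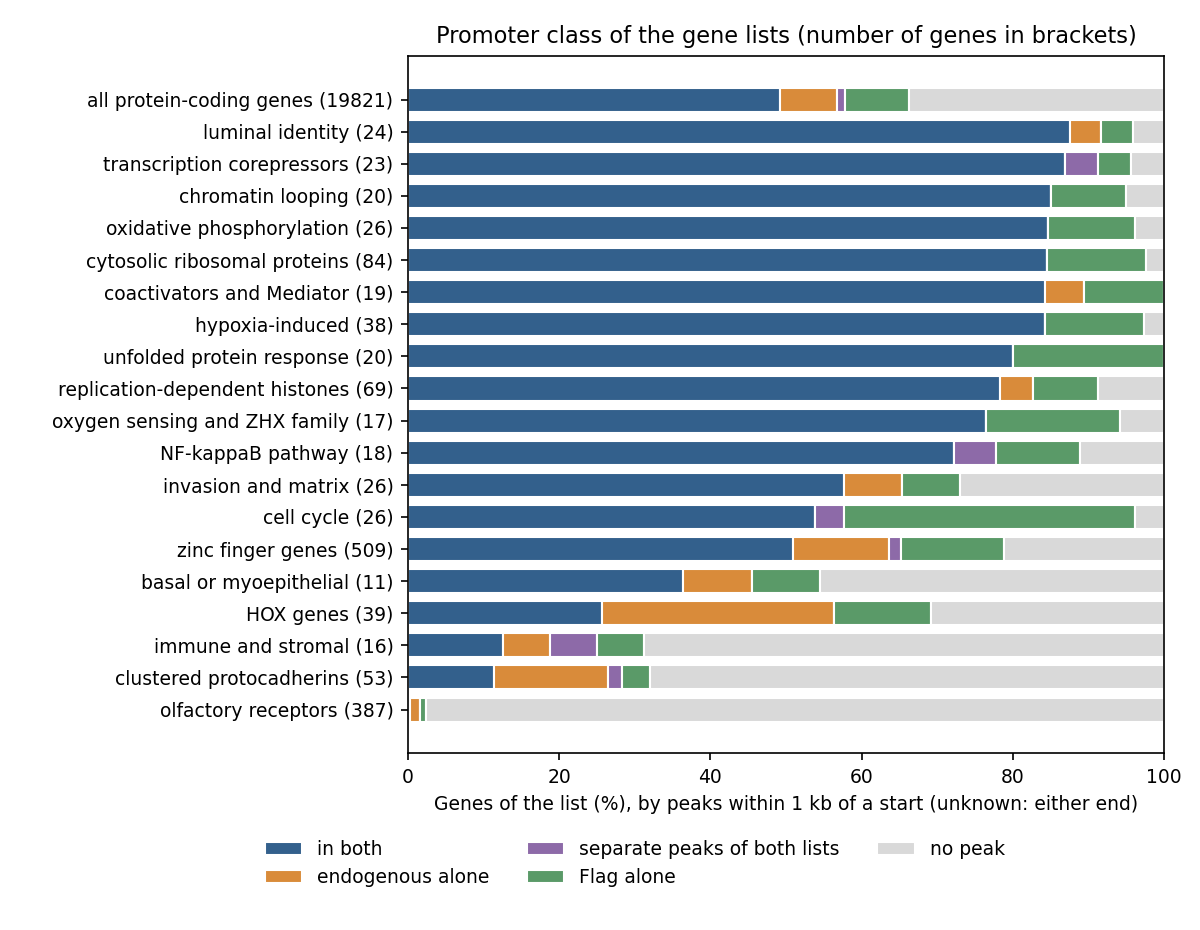
Share of genes (x axis, %) with shared peaks, endogenous peaks alone, separate peaks of both lists, Flag peaks alone or no peak within 1 kb of a start (of either annotated end where no start is known), for 19 lists and all 19821 protein-coding genes, with the number of genes in brackets. Cell cycle genes have the largest Flag alone share (38.5%) and HOX genes the largest endogenous alone share (30.8%).

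Single-list peaks also gathered in places. Per 100 kb, the densest endogenous alone group was 20 peaks at 8.4 Mb of chromosome 21, of which 0 had H3K27ac. MED13L, a gene of the Mediator kinase module, held 19, of which 19 had H3K27ac. The HOXC and HOXB clusters held 16 each. The chromosome 21 window held no protein-coding gene. A less dense group of 14 on chromosome 1 (143200001 to 143300000) also had no protein-coding gene, and 0 had H3K27ac. Whether reads in these gene-free windows are placed with certainty was not tested. The densest Flag alone groups were 23 around ZMYND8, a reader of histone marks (12 with H3K27ac), 18 around DNAJB1, a heat shock co-chaperone (18 with H3K27ac), 18 around BORCS6 and PER1, and 17 around VEGFA (8 with H3K27ac).

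Promoter sequence differed between the classes. Motifs were searched on both strands in the 250 bases before 22012 annotated starts, and a window took the class of the peaks on it. The CCAAT box (CCAAT), bound by the NF-Y complex, was in 42.8% of Flag alone windows (40.5 to 45.1%), 33.0% of shared windows (32.0 to 33.9%) and 22.6% of endogenous alone windows (20.3 to 25.1%), against 32.7% of all windows. The ETS motif (CCGGAAG) was in 18.3%, 16.5% and 6.01%, against 10.6% of all, and the NRF1 motif (GCGCATGCG), bound by nuclear respiratory factor 1, in 3.92%, 3.19% and 0.918%, against 2.03%. The GC box (GGGCGG) had the reverse order, 61.8%, 72.3% and 75.3%, against 53.7%. The AP-1 motif (TGANTCA) was in 6.30% of Flag alone, 2.98% of shared and 2.50% of endogenous alone windows, against 5.36%. The hypoxia response core (ACGTG), which the E-box CACGTG also contains, was in 22.1% of Flag alone, 24.7% of shared and 17.4% of endogenous alone windows, against 20.1% of all.

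Base composition moved with the classes, with median GC contents of 62.0%, 66.8% and 71.6% for Flag alone, shared and endogenous alone windows. Among windows of 60 to 70% GC the CCAAT box was in 44.2% of 758 Flag alone, 35.3% of 3928 shared and 25.7% of 319 endogenous alone windows, and the ETS motif in 22.8%, 18.7% and 6.58%. The GC box was then in 70.8%, 72.6% and 70.2%, with intervals that overlapped. Among windows with H3K27ac the CCAAT box was in 44.4%, 33.0% and 21.6%. A match of letters is a description of the window and not a bound site.

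**Figure D5:**
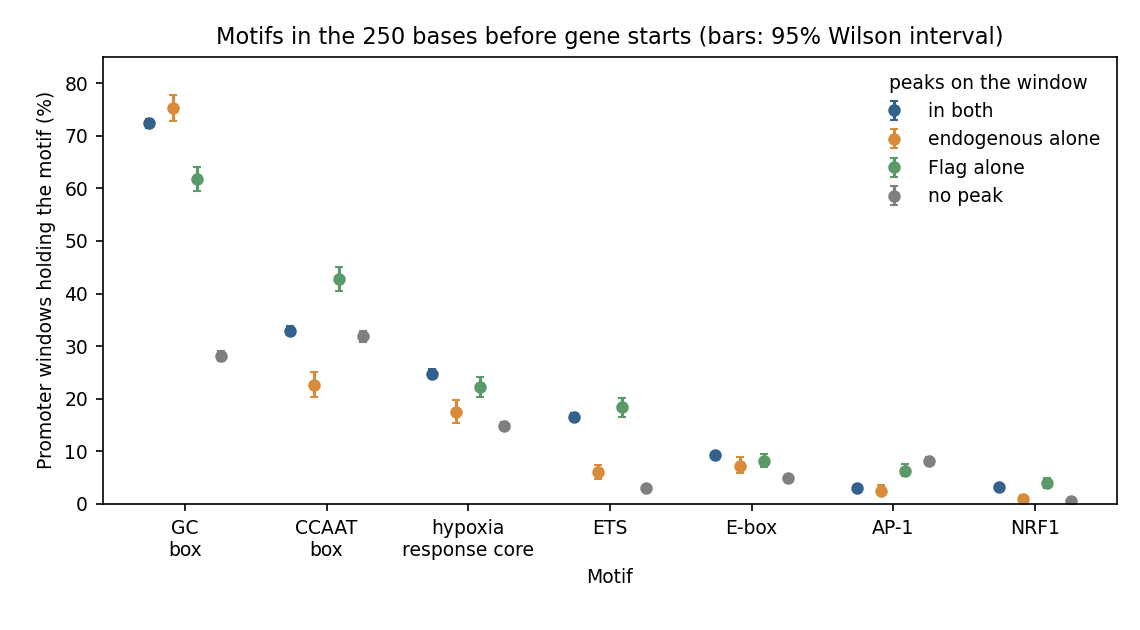
Share of promoter windows (y axis, %) that hold each motif (x axis), by the peaks on the window, points with 95% Wilson intervals. The CCAAT box is in 42.8% of Flag alone and 22.6% of endogenous alone windows, and the ETS motif in 18.3% and 6.01%.

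Transfer RNA genes, short genes read by RNA polymerase III, were met by Flag peaks alone at more genes than by endogenous peaks alone. Of 429 tRNA genes 172 had shared peaks (40.1%, 35.6 to 44.8%), 80 had Flag peaks alone (18.6%, 15.2 to 22.6%) and 6 endogenous peaks alone (1.40%, 0.643 to 3.02%). Among long noncoding RNA genes 6.60% had Flag peaks alone and 6.90% endogenous peaks alone, and among microRNA genes 2.56% and 1.10%. Counted over peaks, tRNA genes lay under 0.812% of shared Flag, 0.389% of Flag alone, 0.616% of shared endogenous and 0.0405% of endogenous alone peaks. Flag alone intervals are wider and covered 11.5 Mb, against 5.15 Mb for endogenous alone peaks. The part that width plays in these counts was not tested. Pseudogenes had the opposite order, with 207 of 15048 under endogenous peaks alone (1.38%), 115 under Flag peaks alone (0.764%) and 140 under shared peaks. H3K27ac overlapped 78.5% of the tRNA genes with shared peaks and 18.8% of those with Flag peaks alone. tRNA genes are clustered and near-identical, so their reads cannot all be placed with certainty. Genes of small nuclear RNAs had 50 shared of 149 (33.6%), 4 Flag alone and 3 endogenous alone.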

How the data were processed

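Titles and antibody labels gave the group of each of the 28 samples, with 16 immunoprecipitated samples in 8 groups of 2, and 12 without antibody. Of the latter, 4 are titled Flag and were kept apart. Gene lists, members and motifs were chosen with earlier results of these data known.

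Trimming, alignment and peak-calling tools (cutadapt, Bowtie2 and MACS2) and the build GRCh38 (hg38) are named without versions, per the submitters' processing notes. The authors deposited 1 peak list per group. ZHX2 and CTCF lists are narrow peaks, and H3K27ac lists broad. Score, fold enrichment (a ratio) and −log10 q of a peak come as deposited by the authors and served for ranks and filters inside 1 list. Flag lists hold positions. The sources used here do not give read depth, the pooling of samples or the use of inputs. The precision of each peak is therefore unknown.

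Peaks on chromosomes 1 to 22 and X were compared in Python 3.11.15 with pandas 2.3.3 and NumPy 2.4.6, checked on simulated peaks. Coordinates are printed 1-based. Promoters were 1 kb around RefSeq starts for 15812 of 19821 protein-coding genes, and around either annotated end for the rest. Classes, states and genes were counted without tests, since no group has replicate values. Named at promoters were the 10 strongest shared and endogenous alone peaks by fold, the 10 widest Flag alone peaks, up to 4 members per list and class (19 lists), and CCND1, MYC, GATA3, ESR1, PGK1, NDRG1, EGLN3, SLC2A1, VEGFA, CA9, VHL, EPAS1, HIF1A, CTCF and ZHX2. Members given beyond these, the peaks inside HIF1A and ZHX2, the dense groups and the tRNA genes were named after their values were seen. A few genes under this rule are not reported here. Alternatives covered the overlap, list strength and length, peak width, contigs, the gene window, position, gene ends, known starts and intervals shared by the Flag lists.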

Additional observations from a re-analysis of the deposited data

How the results depend on the processing

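No paired analysis was possible because each group has 1 peak list, which also leaves no replicate to leave out. Of 77 values under alternatives 30 stayed within the interval of the reported value, or within 1.5 times a reported count of genes, 47 moved and 0 reversed. Reversed means a change of sign, which a share of peaks or a count of genes cannot show. The 0 therefore bears only on the differences between classes at CTCF and H3K27ac. The cause of each move was not tested beyond what the setting itself removes.

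With an overlap of at least 50% of the shorter peak, shared shares were 51.2% of endogenous and 42.3% of Flag peaks, the H3K27ac difference 45.2 points, and Flag alone peaks had CTCF in 21.7% and H3K27ac in 55.7%. With an endogenous summit within 250 bp of the Flag midpoint, the shares were 23.8% and 24.5%, the differences 19.1 points at CTCF and 26.9 at H3K27ac, Flag alone peaks had 35.4% and 65.4%, and 5087 genes had a shared, 6264 an endogenous alone and 6582 a Flag alone promoter. The genes counted here as single-list include those with separate peaks of both lists.

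With the upper 50% of endogenous peaks by score, shares were 69.7% and 32.4%, differences 32.8 and 33.6 points, Flag alone states 27.04% and 61.2%, and single-list genes 937 and 4029. With a −log10 q of at least 5 they were 63.3% and 38.4%, 34.4 and 38.9 points, 23.7% and 58.1%, and 2948 Flag alone genes. With lists of equal length the shares were 54.9% and 44.3%. With the wider 50% of Flag peaks they were 45.8% and 71.0%, the H3K27ac difference 42.7 points and the Flag alone states 32.1% and 69.4%. With peaks of 200 bp the CTCF difference was 32.8 points and the Flag alone states 15.4% and 52.0%.

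Settings added after seeing the data were Flag intervals with other coordinates than any PA interval, where shares fell to 11.2% and 21.8% and Flag alone states to 16.8% and 51.5%, and peaks away from promoters, with differences of 24.2 and 45.8 points and Flag alone states of 15.4% and 48.7%. Promoters taken at either annotated end, or genes with a known start alone, moved no gene count past 1.5 times, while the endogenous alone share of HOX genes went from 30.8% to 20% with known starts.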
